A study of Homo sapiens with 96 samples.

Results

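The ERBB receptor ligands HBEGF, TGFA, EREG, BTC, EGF and NRG1 were followed across HaCaT keratinocytes carrying oncogenic constructs, EGFR inhibitors, a small interfering RNA against EGFR (siEGFR) and head and neck carcinoma lines. The platform, an Affymetrix U133 Plus 2.0 expression array, names these 6 genes singly on 18 probe sets, and where a gene had several, the brightest on average across the 89 construct arrays stood for it, a rule applied alike to all 19775 genes. Of 96 arrays in all, 89 came from the construct lines and 7 from other lines. All values are log2 probe set levels, so a difference of 1 is a doubling, and "fell" or "rose" below means an adjusted p under 0.05 in a model fitted to all genes.

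HaCaT is a spontaneously immortalized human keratinocyte line. HaCaT-Mock was the control line. HaCaT-EGFR, HaCaT-HRAS and HaCaT-PIK3CA carried EGFR, an activating mutant of HRAS or a hotspot mutant of PIK3CA in a pLenti-CMV puro vector. Transduced cells were selected with puromycin, and the methods do not say what HaCaT-Mock carried or whether single clones were picked. Each line was treated with phosphate-buffered saline (PBS), 10 nM afatinib, 100 nM gefitinib or 100 nM cetuximab for a day, usually on 3 arrays a group, while HaCaT-EGFR with PBS and HaCaT-PIK3CA with gefitinib had 2. Each line was also transfected with a scramble control siRNA or siEGFR on 3 arrays each, and with scramble siRNA plus PBS (1 array in HaCaT-Mock, 2 in each other line) or plus each inhibitor (1 array each). SCC1 and SCC25 were measured untreated on 2 arrays each, FaDu once untreated and once with PBS, and the parental HaCaT line once. The labels do not say whether replicates were separate cultures, so p-values measure the spread between arrays.

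ERBB ligands are made as precursors anchored in the cell membrane and are cut free by proteases, after which they bind EGFR, ERBB3 or ERBB4 on the same or a neighbouring cell. HB-EGF (HBEGF), epiregulin (EREG) and betacellulin (BTC) bind EGFR and ERBB4, TGF-alpha (TGFA) and EGF bind EGFR, and neuregulin 1 (NRG1) binds ERBB3 and ERBB4. In keratinocytes the EGFR ligands act in an autocrine loop that drives migration and proliferation, and several of them are themselves induced by signaling through RAS and the MAP kinases. Amphiregulin (AREG) and epigen (EPGN), other ligands of EGFR, had no singly named probe set and are not analysed here.

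The bases before the transcription start of HBEGF, TGFA and EREG are shown because these EGFR ligands fell under the EGFR inhibitors in several lines. The promoter table had an entry for 5 of the 6 ligands, and NRG1 is named only. The sequences are RefSeq's on GRCh38.p14, each the 250 bases upstream of the annotated start read 5′ to 3′ on the gene's own strand. Capitals mark matches to the motifs searched on both strands: AP-1 (TGANTCA), CRE (TGACGTCA), EGR (GCGTGGGCG), ETS (CCGGAAG), AP-2 (GCCNNNGGC), the GC box (GGGCGG) and the TATA motif (TATAAA). HBEGF lies at chr5:140346604-140346853 on the minus strand, TGFA at chr2:70553827-70554076 on the minus strand and EREG at chr4:74364895-74365144 on the plus strand.
HBEGF: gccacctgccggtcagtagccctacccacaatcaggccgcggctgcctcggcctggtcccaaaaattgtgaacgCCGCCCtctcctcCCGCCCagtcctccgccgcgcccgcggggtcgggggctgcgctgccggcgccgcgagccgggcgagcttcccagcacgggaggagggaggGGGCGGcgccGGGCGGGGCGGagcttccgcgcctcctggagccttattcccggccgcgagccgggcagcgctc
TGFA: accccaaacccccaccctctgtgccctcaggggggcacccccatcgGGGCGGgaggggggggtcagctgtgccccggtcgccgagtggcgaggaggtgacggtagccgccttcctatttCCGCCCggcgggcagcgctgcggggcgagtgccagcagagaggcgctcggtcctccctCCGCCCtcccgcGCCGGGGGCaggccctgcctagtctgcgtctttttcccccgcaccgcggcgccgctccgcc
EREG: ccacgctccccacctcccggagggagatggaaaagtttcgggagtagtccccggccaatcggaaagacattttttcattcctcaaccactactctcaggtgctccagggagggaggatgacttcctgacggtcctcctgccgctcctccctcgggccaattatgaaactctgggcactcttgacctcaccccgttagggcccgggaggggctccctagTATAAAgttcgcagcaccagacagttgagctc

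HBEGF held 5 GC boxes in this window, of which those starting 63 and 58 bases before the start share 1 base, and TGFA held 3 GC boxes and an AP-2 match. EREG held a TATA motif 32 bases before its start and no other match. The second annotated TGFA start and BTC held no match, and EGF held an AP-1 match 17 bases before its start. Among 35116 promoters of the same length, 42.6% held a GC box, 19.8% an AP-2 match, 10.7% a TATA motif, 6.57% an AP-1 match, 8.52% an ETS match, 1.65% a CRE and 0.72% an EGR match. The windows of HBEGF and TGFA had 76.4% and 75.6% G or C bases, against 58% in EREG and a median of 58% over all promoters. A match is a description of the letters and not a bound site.

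The labels name 3 main batches, J with 53 arrays, E with 16 and M with 26, without saying what a batch was, and batch was a term in every model. Batch tracked the second principal component of the construct arrays (15.3% of the variance, r2 with batch of 0.823). Within-batch values therefore stand beside many results of the construct lines, and none is given for the carcinoma lines. The 3 arrays with the lowest weights in limma's array weighting were HaCaT-HRAS gefitinib replicates 2 and 1 (0.02 and 0.0578) and HaCaT-PIK3CA afatinib replicate 1 (0.107), against a highest weight of 2.6, and values without them stand beside several results. The keratinocyte markers measured singly (KRT5, KRT14, DSG3 and CDH1) had means of 9.49 to 12.6, while 3 leukocyte, 3 endothelial, 3 melanocyte and 4 of 5 fibroblast markers lay below the median of gene means, 6.10. EGFR mRNA fell by 1.92 under siEGFR over the 4 lines. In HaCaT-EGFR with PBS the EGFR probe set differed from HaCaT-Mock by 0.00 (95% interval -0.22 to 0.22), and since its place relative to the construct was not analysed, it checks nothing about that construct. As a check of the inhibitors, the difference of the MAP kinase phosphatase DUSP6 was -2.86 in HaCaT-Mock, -3.18 with the EGFR construct, -2.34 with PIK3CA and -0.59 with HRAS, and that of the early response gene EGR1 was -2.61, -3.48, -2.77 and -0.95.

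**Figure D1:**
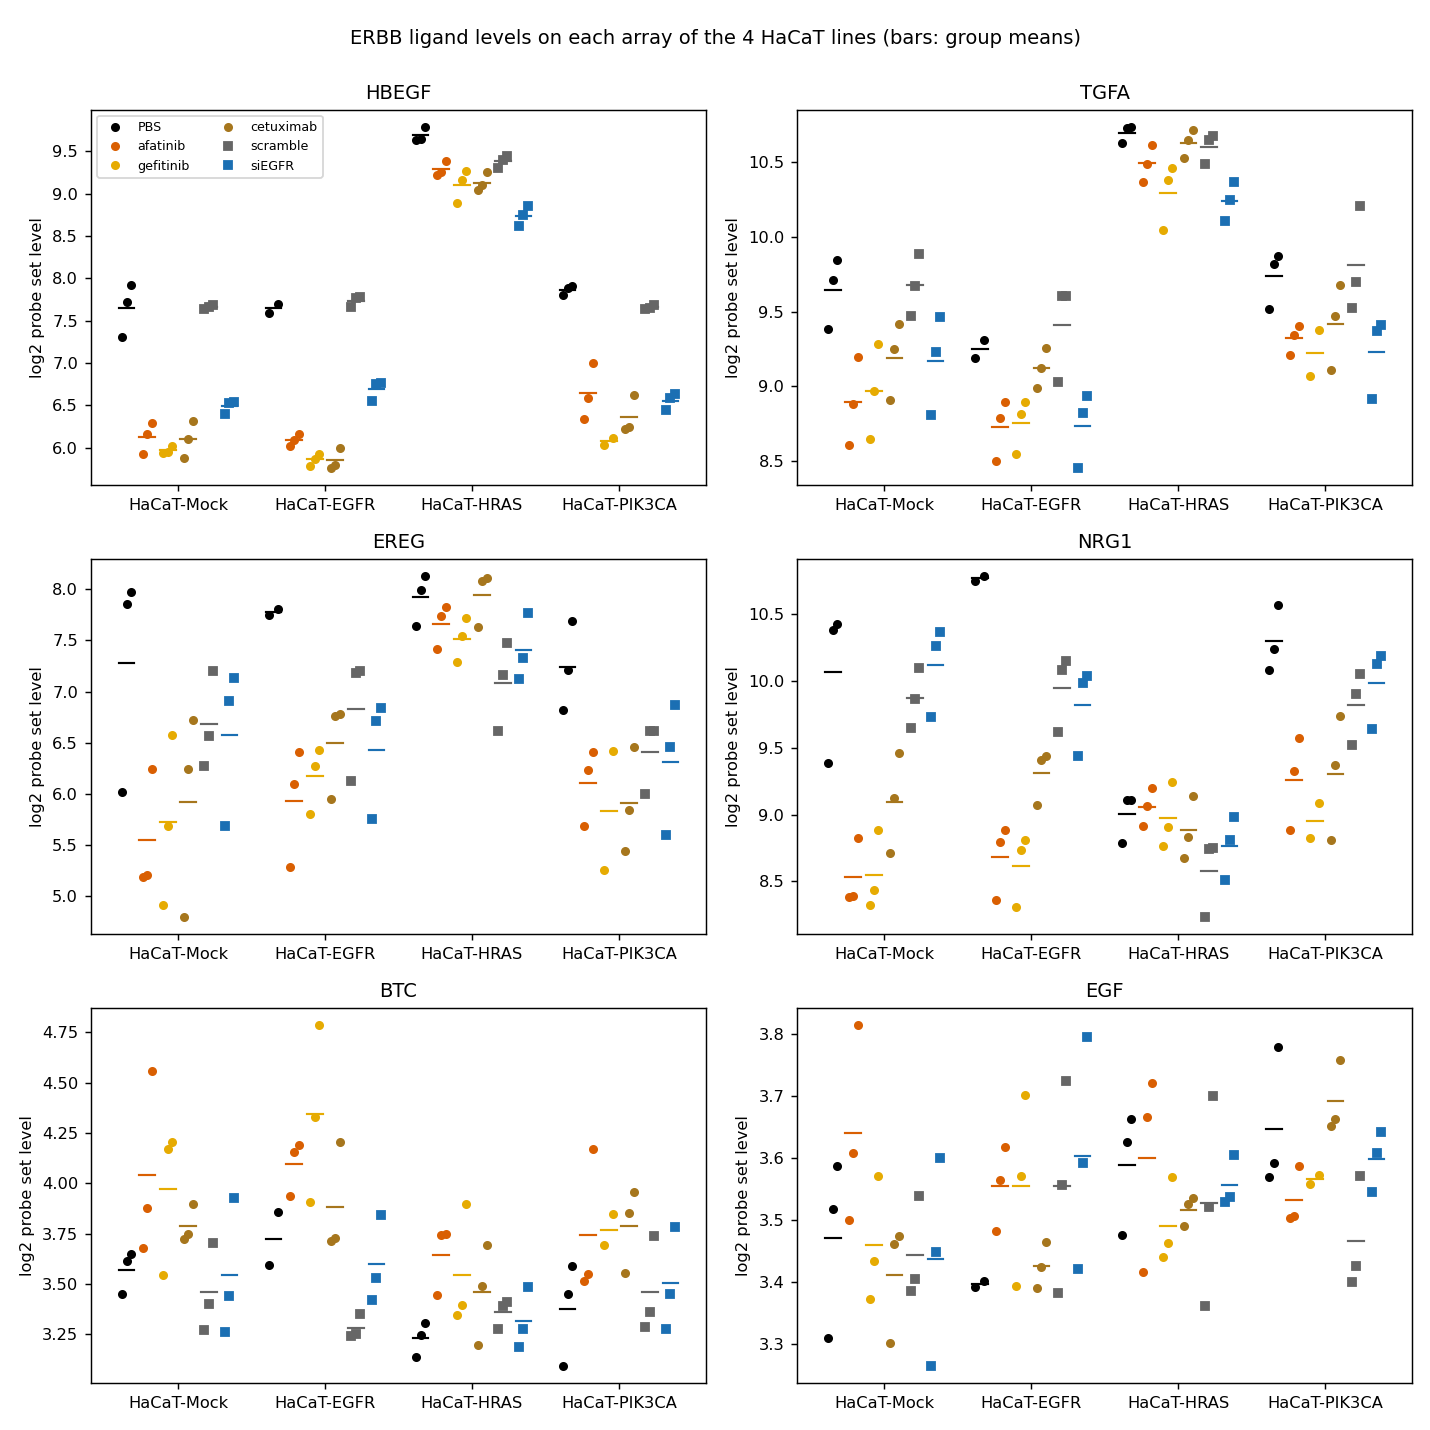
Log2 probe set level of each ligand (vertical axis, one panel per ligand) on each array of the 4 HaCaT lines (horizontal axis), with points coloured by treatment and short bars at the group means. HBEGF and TGFA sat highest in HaCaT-HRAS under every treatment, and the inhibitor arrays of HBEGF lay below the PBS arrays in each line.

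The first comparison asked how the basal level of the ligands differed between the construct lines. Each construct was measured in a single line, so construct and line cannot be told apart. HBEGF, the membrane-bound ligand that also serves as a receptor for diphtheria toxin, was 9.63, 9.65 and 9.79 on the HaCaT-HRAS arrays with PBS and 7.72, 7.92 and 7.31 on those of HaCaT-Mock. The groups were far apart, and the other lines lay with HaCaT-Mock at 7.59 and 7.70 in HaCaT-EGFR and 7.80 to 7.91 in HaCaT-PIK3CA. HBEGF was higher in HaCaT-HRAS by 1.96 ± 0.11 (SE, adjusted p = 2.48e-21), a 3.89-fold difference, and by 1.82 within batch J.

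TGFA, which binds EGFR alone, was 10.73, 10.74 and 10.63 in HaCaT-HRAS with PBS against 9.71, 9.85 and 9.38 in HaCaT-Mock. Every HaCaT-HRAS array lay above every array of the other lines with PBS, and the difference from HaCaT-Mock was 1.02 ± 0.12 (adjusted p = 4.14e-09; 0.956 within batch J). The lowest TGFA levels with PBS were those of HaCaT-EGFR, 9.31 and 9.19, below all HaCaT-Mock arrays. That difference of -0.52 ± 0.14 did not pass the test (adjusted p = 0.0594), but passed with array weights (adjusted p = 0.000167) and without the 3 arrays of low weight (adjusted p = 0.0108).

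NRG1, a ligand of ERBB3 and ERBB4 that is also cut by shedding proteases, went the other way. Its levels with PBS were 9.11, 9.11 and 8.79 in HaCaT-HRAS against 10.43, 10.38 and 9.39 in HaCaT-Mock, where the lowest value was the batch E array. All HaCaT-HRAS arrays lay below all arrays of the other lines. NRG1 was lower in HaCaT-HRAS, with a difference of -1.08 ± 0.13 (adjusted p = 1.99e-09; -1.30 within batch J). It was highest in HaCaT-EGFR, at 10.75 and 10.79, by 0.56 ± 0.14 over HaCaT-Mock (adjusted p = 0.0415). That call did not hold without either HaCaT-EGFR array (adjusted p = 0.232 and 0.585) or without the batch E array of HaCaT-Mock (0.37, adjusted p = 0.356), and on the study's choice of NRG1 probe set the difference was -0.23.

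EREG, a low-affinity ligand of EGFR and ERBB4, was 8.13, 7.99 and 7.64 in HaCaT-HRAS, 7.86, 7.98 and 6.02 in HaCaT-Mock, 7.75 and 7.81 in HaCaT-EGFR and 7.21, 7.69 and 6.82 in HaCaT-PIK3CA. HaCaT-HRAS overlapped HaCaT-Mock, whose lowest value was the batch E array. Their difference was 0.46 (95% confidence interval -0.04 to 0.95, adjusted p = 0.248), and 0.146 within batch J. BTC and EGF were measured near the bottom of the array's range, which ran from 2.65 to 14.5. BTC levels over the construct arrays ran from 3.09 to 4.79 and EGF levels from 3.27 to 3.82, and neither passed the test in any construct with PBS. In HaCaT-PIK3CA none of the 6 ligands passed, and the 95% interval of the HBEGF difference, -0.08 to 0.35, lay well below the HaCaT-HRAS value.

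Of the 6 ligands, 3 were called in HaCaT-HRAS, where 16.1% of all genes were called, 1 in HaCaT-EGFR (0.698% of all genes) and 0 in HaCaT-PIK3CA (0.162%, 32 genes, with 1863 at an unadjusted p under 0.05). With scramble siRNA in place of PBS, a separate set of arrays, HaCaT-HRAS again had HBEGF higher by 1.72 ± 0.11, TGFA higher by 0.93 ± 0.12 and NRG1 lower, at -1.29 ± 0.13, with 14.9% of all genes called. Within batches J and M the HBEGF difference was 1.68 and 1.80. No ligand passed against HaCaT-Mock with scramble siRNA in HaCaT-EGFR (2.38% of all genes) or HaCaT-PIK3CA (0.0303%), and NRG1 in HaCaT-EGFR then differed by 0.08 (95% interval -0.17 to 0.33).

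**Figure D2:**
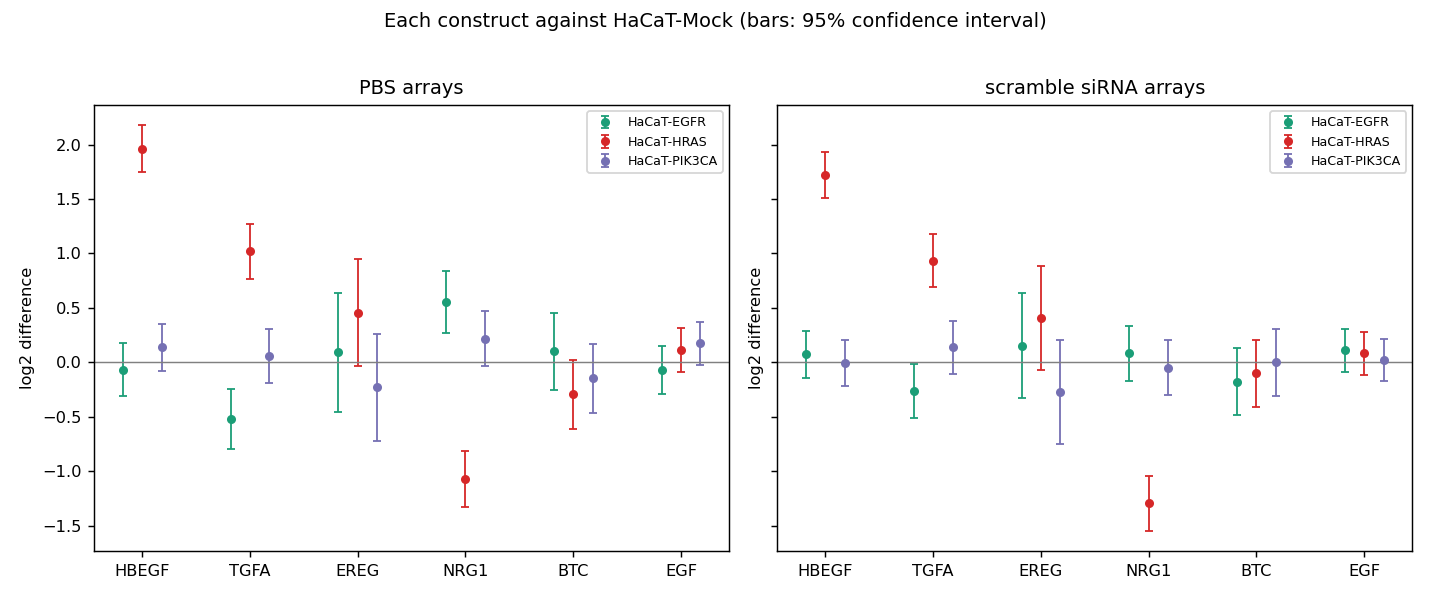
Log2 difference of each ligand in each construct line from HaCaT-Mock, on PBS arrays (left) and scramble siRNA arrays (right), with 95% confidence intervals as bars. HaCaT-HRAS stood at 1.96 and 1.72 for HBEGF, near 1 for TGFA and below -1 for NRG1, while the other lines lay closer to 0.

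The genes around the ligands were described from lists of the pathway. In HaCaT-HRAS with PBS, 16.1% of all genes were called against HaCaT-Mock. Among 13 receptor and MAPK feedback inhibitors, 6 were higher and 0 lower, including the phosphatase DUSP5 (1.33) and the RAS pathway inhibitor SPRY4 (0.95). Of 12 MAPK-induced transcription factors 4 were higher and 0 lower, among them EGR3 (1.58) and IER3 (0.71). Of 13 genes for ligand shedding 2 were higher and 1 lower, with the metalloprotease ADAM19 at 0.89 and the secretase BACE1 at -0.46. Among the receptors only ERBB3 passed, at 0.32, and of 3 other ligands tested NRG4 was lower, at -0.63. Of 4 keratinocyte markers only the basal keratin KRT5 was called, at -1.01, and of 8 housekeeping genes 0 were. CD9, a tetraspanin that binds the HB-EGF precursor, was higher by 0.56. The feedback inhibitors had a median difference of 0.309 and the transcription factors of 0.203, against -0.00356 over all genes.

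The second comparison asked how the ligands responded to EGFR inhibition. Afatinib and gefitinib block the receptor's kinase, afatinib across the ERBB family, and cetuximab is an antibody that covers the ligand site of EGFR. HBEGF in HaCaT-Mock was 7.72, 7.92 and 7.31 with PBS, 6.29, 5.92 and 6.16 with afatinib, 5.93, 5.96 and 6.03 with gefitinib and 6.11, 5.88 and 6.32 with cetuximab. All 9 inhibitor arrays lay below all 3 PBS arrays. Taking the mean of the 3 inhibitors, HBEGF fell by 1.60 ± 0.09 in HaCaT-Mock (adjusted p = 7.52e-21), and within batches J and E its difference was -1.71 and -1.39. It fell likewise where the receptor (-1.72 ± 0.10) or mutant PIK3CA (-1.51 ± 0.09) had been introduced.

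In HaCaT-HRAS the fall of HBEGF was smaller. Levels there were 9.63 to 9.79 with PBS, 9.22 to 9.39 with afatinib, 8.89 to 9.27 with gefitinib and 9.04 to 9.25 with cetuximab, and the PBS arrays still lay above all 9 inhibitor arrays. HBEGF fell by 0.52 ± 0.09 (adjusted p = 8.25e-05; -0.532 within batch J and -0.486 within batch M). Even on its lowest inhibitor array, HBEGF in HaCaT-HRAS was above every PBS array of the other lines.

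EREG in HaCaT-Mock was 7.86, 7.98 and 6.02 with PBS, and ran from 4.79 to 6.73 over the 9 inhibitor arrays. Both its PBS and inhibitor arrays were lowest in batch E, so the groups overlapped across batches but not within a batch. EREG fell by 1.33 ± 0.20 in HaCaT-Mock (-1.40 within batch J, -1.05 within E), and it also fell in HaCaT-EGFR (-1.36 ± 0.23) and HaCaT-PIK3CA (-1.25 ± 0.20). In HaCaT-HRAS its levels with the inhibitors, 7.29 to 8.11, overlapped those with PBS, 7.64 to 8.13, and the difference was -0.22 (95% interval -0.61 to 0.18, adjusted p = 0.65).

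NRG1 showed the same division between the lines. In HaCaT-EGFR it was 10.75 and 10.79 with PBS and 8.31 to 9.44 with the inhibitors, a fall of 1.76 ± 0.12 (adjusted p = 6.55e-17). It fell by 1.2 ± 0.10 in HaCaT-Mock (-1.35 within batch J, -0.916 within E) and by a like amount in HaCaT-PIK3CA (-1.10 ± 0.10). In HaCaT-HRAS it was 8.79 to 9.11 with PBS and 8.67 to 9.25 with the inhibitors, and the difference was -0.03 (95% interval -0.24 to 0.17, adjusted p = 0.931).

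TGFA moved less than HBEGF and EREG over the 4 lines. It fell in HaCaT-Mock (-0.54 ± 0.10, adjusted p = 1.54e-05) and HaCaT-PIK3CA (-0.40 ± 0.10, adjusted p = 0.00203). In HaCaT-EGFR the difference was -0.30 (adjusted p = 0.0543, and 0.0339 without the 3 arrays of low weight), and in HaCaT-HRAS -0.23 (adjusted p = 0.186, and 0.037 without gefitinib replicate 3). BTC was the member that rose, by 0.46 ± 0.13 in HaCaT-Mock, by 0.48 ± 0.15 with the EGFR construct and by 0.41 ± 0.13 with PIK3CA, against 0.32 in HaCaT-HRAS (adjusted p = 0.126). BTC in HaCaT-Mock was 3.45 to 3.65 with PBS and 3.55 to 4.56 with the inhibitors, so the groups overlapped, and its second probe set moved by 0.08 over the 4 lines. The BTC calls of HaCaT-Mock, HaCaT-EGFR and HaCaT-PIK3CA were lost without the batch term, that of HaCaT-EGFR also without its PBS replicate 2 (adjusted p = 0.267), and that of HaCaT-PIK3CA without its PBS replicate 1 or 3 (adjusted p = 0.0685 and 0.0981). EGF did not pass in any line, and its 95% interval over the 4 lines ran from -0.08 to 0.09.

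Of the 6 ligands, 5 were called in HaCaT-Mock (28.7% of all genes), 4 in HaCaT-EGFR (26.4%), 5 in HaCaT-PIK3CA (20.3%) and 1 in HaCaT-HRAS (6.01%). As a mean of all 4 lines, with 39.2% of all genes called, the differences were -1.34 ± 0.05 for HBEGF, -1.04 ± 0.10 for EREG, -1.02 ± 0.05 for NRG1 and -0.37 ± 0.05 for TGFA, while BTC rose by 0.42 ± 0.07. These 5 calls held without any single array. The comparisons of each line share its PBS arrays between inhibitors.

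The test of the difference in response was made between each construct and HaCaT-Mock. The response of HaCaT-HRAS was weaker for HBEGF by 1.08 ± 0.12 (adjusted p = 3.64e-09; 1.18 within batch J), for EREG by 1.11 ± 0.28 (adjusted p = 0.00462; 1.10 within batch J) and for NRG1 by 1.17 ± 0.14 (adjusted p = 3.91e-08; 1.30 within batch J), with 9.53% of all genes called. The HBEGF and NRG1 calls held without any single array and under each alternative of scaling, batch and array choice, while the EREG call was lost without a batch term (adjusted p = 0.183). For TGFA the difference of 0.32 had an adjusted p of 0.175, which became 0.0232 without the 3 arrays of low weight and 0.0269 with array weights. No ligand differed from HaCaT-Mock in the response of HaCaT-EGFR (0.0708% of all genes) or HaCaT-PIK3CA (0.142%). NRG1 in HaCaT-EGFR came nearest, with a difference of -0.56 (95% interval -0.88 to -0.25, adjusted p = 0.213; 0.00607 with array weights).

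**Figure D3:**
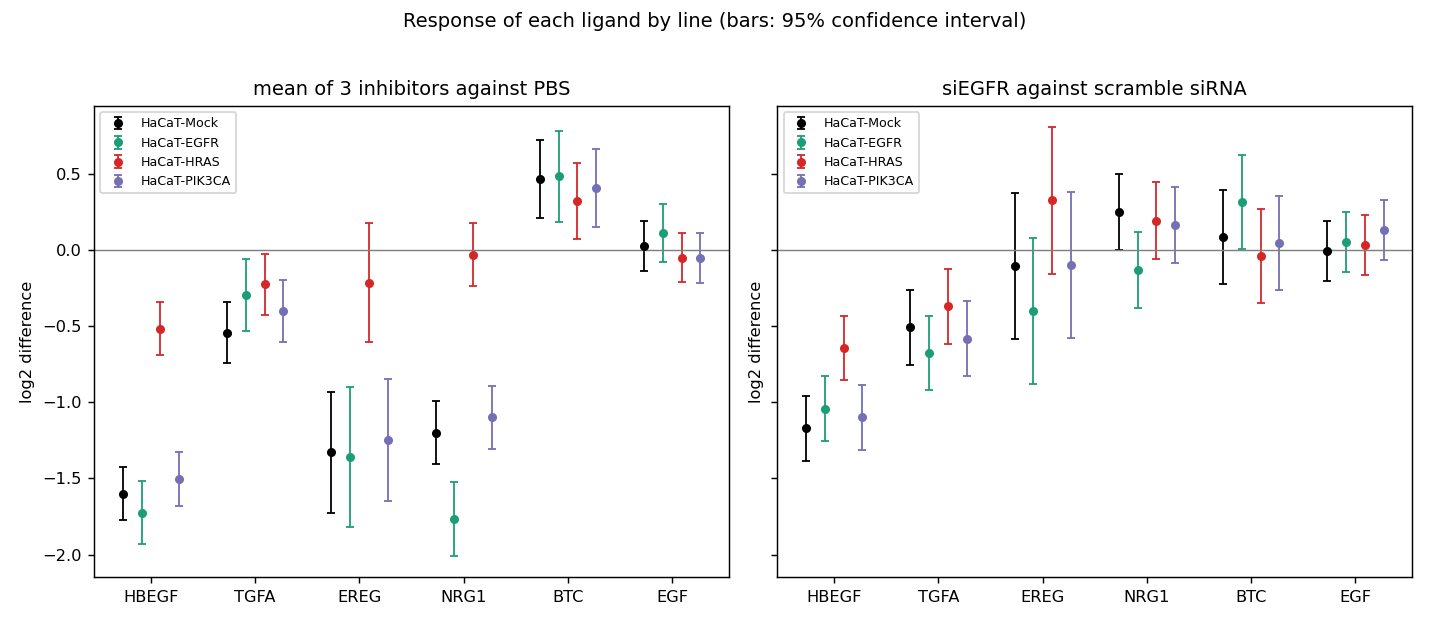
Log2 difference of each ligand under the mean of the 3 inhibitors against PBS (left) and under siEGFR against scramble siRNA (right) in each line, with 95% confidence intervals as bars. HaCaT-HRAS stood near 0 for EREG and NRG1 and at -0.52 for HBEGF under the inhibitors, while under siEGFR HBEGF lay below 0 and the intervals of EREG and NRG1 included 0 in every line.

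Single inhibitors were given at doses that differ, so their counts stand side by side without a test between them. In HaCaT-Mock, afatinib called 5 of the 6 ligands (28.5% of all genes), gefitinib 5 (24.1%) and cetuximab 4 (14.4%). In HaCaT-EGFR they called 5 (26.7%), 5 (24.7%) and 3 (13.8%). In HaCaT-PIK3CA they called 4 (9.29%), 4 (17.4%) and 3 (17.7%), and in HaCaT-HRAS 1 (4.45%), 2 (15.8%) and 1 (0.319%). HBEGF was called under all 3 inhibitors in all 4 lines, also in HaCaT-HRAS with cetuximab, where 63 genes were called in all. In HaCaT-HRAS the afatinib call, at -0.41 (adjusted p = 0.0151), was lost without afatinib replicate 1 or 2 or PBS replicate 3 (adjusted p = 0.0894, 0.0553 and 0.109) and within batch J (0.34), the gefitinib call with array weights (0.649) and the cetuximab call within batch J (0.331). The TGFA call there with gefitinib, at -0.40 (adjusted p = 0.0174), was lost without gefitinib replicate 1 or PBS replicate 3 (adjusted p = 0.376 and 0.0959), and stood at -0.05 without the 3 arrays of low weight. In the other lines the single-inhibitor calls lost without 1 array were all of TGFA or BTC, but other settings also lost calls of other ligands. Without a batch term, EREG was lost with cetuximab in HaCaT-EGFR (adjusted p = 0.13). In HaCaT-PIK3CA it was then lost with afatinib, gefitinib and cetuximab (adjusted p = 0.214, 0.0691 and 0.0544). With only the compared groups in the fit, afatinib in HaCaT-PIK3CA lost HBEGF, EREG and NRG1 (adjusted p = 0.139, 0.113 and 0.115). In HaCaT-EGFR the NRG1 levels with cetuximab, 9.44, 9.41 and 9.08, lay above those with afatinib, 8.89, 8.79 and 8.36, and with gefitinib, 8.81, 8.74 and 8.31. Cetuximab was also highest in HaCaT-Mock within each batch, with 9.46 against 8.82 for afatinib and 8.89 for gefitinib in batch J. In HaCaT-PIK3CA the NRG1 levels with cetuximab (9.37, 9.74 and 8.81) overlapped those with afatinib (9.57, 9.32 and 8.88), and in HaCaT-HRAS the cetuximab mean, 8.88, was not higher than 9.06 with afatinib or 8.97 with gefitinib. TGFA in HaCaT-EGFR was likewise 8.99 to 9.26 with cetuximab and 8.50 to 8.90 with afatinib.

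Genes that pass on or restrain the receptor's signal moved with the ligands under the inhibitors. Over the 4 lines, where 39.2% of all genes were called, 11 of 13 receptor and MAPK feedback inhibitors fell and 1 rose, among them the phosphatases DUSP6 (-2.24) and DUSP4 (-1.36), with a median of -0.712 against -0.00539 over all genes. Of 12 MAPK-induced transcription factors 11 fell and 1 rose, among them EGR1 (-2.45) and IER3 (-1.31), with a median of -0.905. Of 13 shedding genes 7 rose and 2 fell, with ADAM19 at -0.93 and the rhomboid protease RHBDL2 at 0.97. ERBB3, the receptor of NRG1, rose by 0.44 and ERBB2 by 0.34, and 3 of the 4 receptors rose in all. CD44, which presents HB-EGF at the membrane, fell by 0.56, and CD9 rose by 0.35. In HaCaT-HRAS, where 6.01% of all genes were called, 4 of the 13 feedback inhibitors and 3 of the 12 transcription factors fell and 0 shedding genes were called in either direction. All 4 keratinocyte markers rose over the 4 lines, with a median of 0.625, among them KRT5 (1.06) and DSG3 (0.73), and 2 of 3 endothelial markers rose from low levels, VWF by 0.71 and CDH5 by 0.60. Of 8 housekeeping genes 2 rose and 3 fell, with HPRT1 at -0.31 and GUSB at 0.18. In bulk RNA, fewer cells of a kind and less RNA per cell cannot be told apart, and the part of a shift in cell state in the ligand values was not tested.

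The third comparison replaced the inhibitors by knockdown of the receptor. The inhibitors were given for a day, while the methods do not say how long after transfection the siRNA arrays were taken. HBEGF was 7.69, 7.66 and 7.64 with scramble siRNA and 6.55, 6.40 and 6.53 with siEGFR in HaCaT-Mock, a narrow spread in both groups. It fell by 1.17 ± 0.11 there, and also in HaCaT-EGFR (-1.04 ± 0.11) and HaCaT-PIK3CA (-1.10 ± 0.11). In HaCaT-HRAS it went from 9.31, 9.40 and 9.45 to 8.62, 8.74 and 8.86, with no overlap, and fell by 0.64 ± 0.11 (adjusted p = 1.75e-05). Over the 4 lines HBEGF fell by 0.99 ± 0.05 (adjusted p = 3.50e-22; -1.01 within batch J and -0.94 within batch M).

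TGFA fell under siEGFR as well, in HaCaT-Mock (-0.51 ± 0.12), HaCaT-EGFR (-0.68 ± 0.12) and HaCaT-PIK3CA (-0.58 ± 0.12). In HaCaT-HRAS its levels were 10.68, 10.65 and 10.49 with scramble siRNA and 10.37, 10.11 and 10.25 with siEGFR, and the difference of -0.37 had an adjusted p of 0.0551. That call passed without siEGFR replicate 3 (adjusted p = 0.0293) and without the 3 arrays of low weight (adjusted p = 0.0192). Over the 4 lines TGFA fell by 0.54 ± 0.06 (adjusted p = 2.19e-10).

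EREG and NRG1, which fell under the inhibitors, did not pass under siEGFR in any line. In HaCaT-Mock EREG was 7.20, 6.56 and 6.27 with scramble siRNA and 6.91, 7.13 and 5.68 with siEGFR, so the groups overlapped. Over the 4 lines the EREG difference was -0.07 (95% interval -0.31 to 0.17, adjusted p = 0.734). NRG1 in HaCaT-Mock was 10.10, 9.87 and 9.65 with scramble siRNA and 10.26, 10.37 and 9.73 with siEGFR. Over the 4 lines the NRG1 difference was 0.12 (95% interval -0.01 to 0.24, adjusted p = 0.171), and fitting only these groups put it past the test (adjusted p = 0.0109). BTC and EGF differed by 0.10 and 0.05 and did not pass.

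Under siEGFR, 2 of the 6 ligands were called in HaCaT-Mock (10.8% of all genes), 2 in HaCaT-EGFR (9.46%), 2 in HaCaT-PIK3CA (11.6%), 1 in HaCaT-HRAS (6.29%) and 2 over the 4 lines (28.4%). No ligand differed from HaCaT-Mock in its response to siEGFR. The limma counts over all genes were 0.0101% for HaCaT-EGFR, 0.0253% for HaCaT-HRAS and 0.00% for HaCaT-PIK3CA, where 453 genes had an unadjusted p under 0.05. HBEGF in HaCaT-HRAS differed by 0.53 (95% interval 0.23 to 0.83, adjusted p = 0.453; 0.527 within batch J and in batch M), and it passed without the 3 arrays of low weight (adjusted p = 0.0451).

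The pathway lists under siEGFR over the 4 lines, where 28.4% of all genes were called, showed 9 of 13 feedback inhibitors lower and 2 higher, among them DUSP5 (-1.11) and DUSP7 (-0.62), and 9 of 12 transcription factors lower and 1 higher, among them IER3 (-0.90) and FOSL1 (-1.15). Beside EGFR itself at -1.92, ERBB3 rose by 0.58. The 2 shedding genes with the lowest adjusted p, ADAM19 and ADAM10, fell by 0.71 and 0.32, and the rest of that list is not described here. CD44 fell by 0.28 and CD9 rose by 0.15. All 4 keratinocyte markers rose, CDH1 by 1.12 and DSG3 by 0.53, and 0 of 3 endothelial markers were called.

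The difference between the responses to siEGFR and to the inhibitors was tested over the 4 lines in a comparison added after the values were seen. The response to siEGFR was weaker for NRG1 by 1.14 ± 0.08 (adjusted p = 1.32e-16), for EREG by 0.97 ± 0.16 (adjusted p = 1.85e-06) and for HBEGF by 0.35 ± 0.07 (adjusted p = 7.15e-05), with 26.8% of all genes called. Within batch J these differences were 1.19, 1.02 and 0.328. For BTC the difference was -0.32 ± 0.10 (adjusted p = 0.0128). For TGFA the difference was -0.17 (95% interval -0.33 to -0.01, adjusted p = 0.128), and it passed without the 3 arrays of low weight (-0.20, adjusted p = 0.0328). In the same comparison 7 of 13 feedback inhibitors and 8 of 12 transcription factors responded less to siEGFR, among them DUSP6 (1.17), DUSP4 (0.92), ETV5 (1.48) and EGR1 (1.74). How far the protein was removed by siEGFR was not measured on the arrays, and the methods do not give the time from transfection to these arrays.

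EREG and NRG1 also differed between the transfected and the untransfected controls. With scramble siRNA against PBS over the 4 lines, where 27.1% of all genes were called, EREG fell by 0.80 ± 0.12 (adjusted p = 9.00e-07) and NRG1 fell by 0.45 ± 0.07 (adjusted p = 2.09e-07). TGFA differed by 0.06. HBEGF differed by -0.13 (adjusted p = 0.0814) and passed without the 3 arrays of low weight (adjusted p = 0.0287), without HaCaT-Mock PBS replicate 3 (adjusted p = 0.0259) and with array weights (adjusted p = 0.00562). Within batch J the EREG and NRG1 values were -0.802 and -0.466. The other NRG1 probe sets gave 0.05, 0.01, 0.02, -0.15 and -0.70, and of these only the last, 208241_at, passed (adjusted p = 2.77e-09).

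The inhibitors were also given to cells with scramble siRNA, which puts a transfected control beside them. Over the 4 lines, with 19.3% of all genes called, the differences were -0.94 ± 0.07 for HBEGF, -0.85 ± 0.15 for EREG, -0.69 ± 0.08 for NRG1 and -0.55 ± 0.08 for TGFA, and BTC rose by 0.28 ± 0.10 (adjusted p = 0.032). The BTC call was lost without scramble plus PBS replicate 1 of HaCaT-EGFR or HaCaT-PIK3CA or replicate 2 of HaCaT-HRAS (adjusted p = 0.0559, 0.0568 and 0.188). Set against these arrays, the response to siEGFR was still weaker for NRG1 by 0.81 ± 0.10 (adjusted p = 1.84e-08) and for EREG by 0.78 ± 0.19 (adjusted p = 0.00294), with 12.2% of all genes called. For HBEGF and TGFA the differences were then -0.04 (95% interval -0.22 to 0.13) and 0.01 (-0.19 to 0.21).

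**Figure D4:**
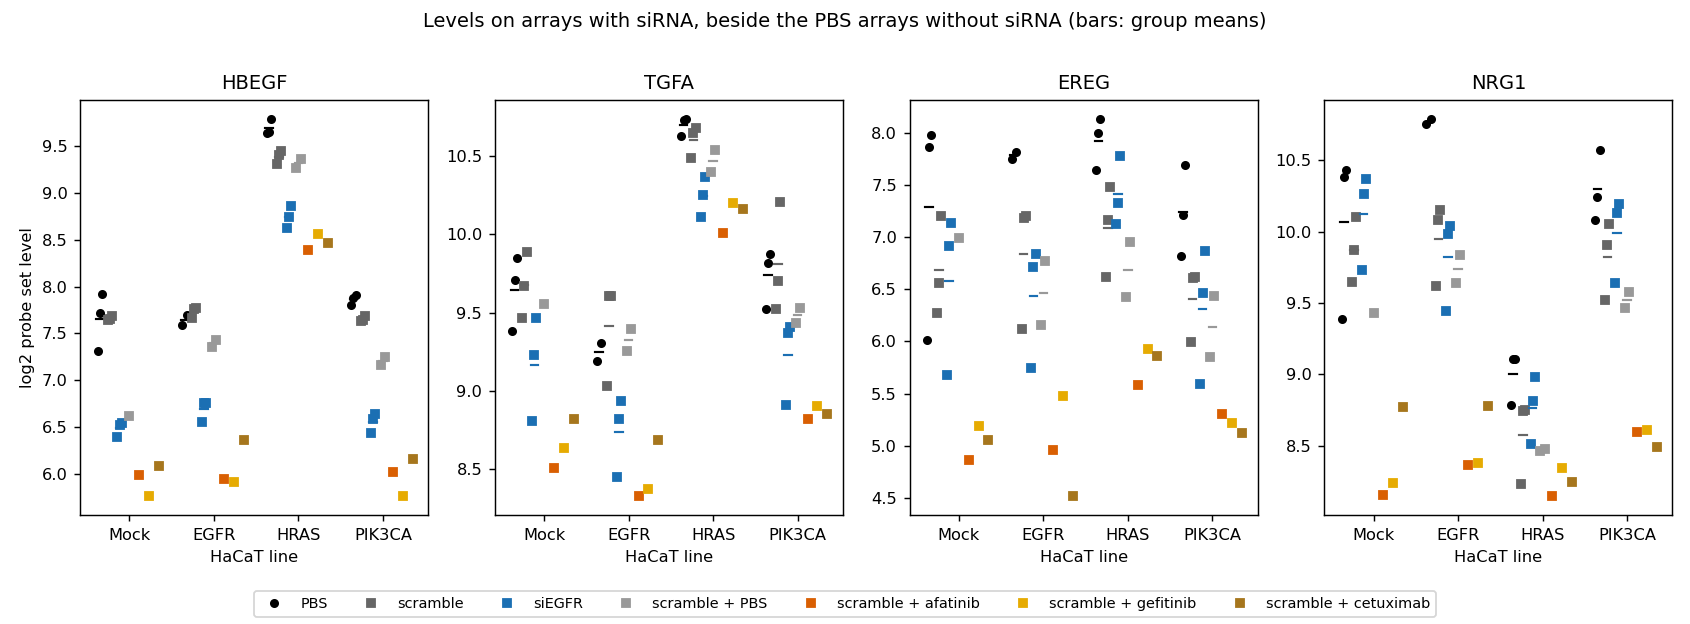
Log2 probe set level of HBEGF, TGFA, EREG and NRG1 (vertical axes) on each array with siRNA and on the PBS arrays without siRNA, by line, with short bars at the means of groups of more than 1 array. NRG1 and EREG with siEGFR overlapped scramble siRNA in each line, with 2 of 3 NRG1 arrays above all scramble siRNA arrays in 3 of the lines, while HBEGF with siEGFR lay below them.

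Line by line these comparisons rest on 1 array per inhibitor and 1 or 2 control arrays, and were added after the values were seen. In HaCaT-Mock (5.86% of all genes) the falls were -1.95 for EREG, -1.04 for NRG1, -0.90 for TGFA and -0.66 for HBEGF, and without the batch term none of these passed. The control there was a single array whose HBEGF level, 6.62, was lower than the 7.64 to 7.69 of the scramble siRNA arrays. In HaCaT-EGFR (19.0%) they were -1.23 for HBEGF, -1.0 for NRG1, -0.87 for EREG and -0.68 for TGFA. In HaCaT-PIK3CA (14.2%) they were -1.13 for HBEGF, -0.73 for NRG1 and -0.44 for TGFA, while BTC rose by 0.69 and EREG, at -0.31, did not pass (-0.635 within batch E). Several of these calls rested on a single control array: without scramble plus PBS replicate 2, EREG in HaCaT-EGFR stood at -0.47 (adjusted p = 0.472), and NRG1 and TGFA in HaCaT-PIK3CA at -0.36 and -0.15 (adjusted p = 0.193 and 0.657). BTC in HaCaT-PIK3CA had an adjusted p of 0.0939 without replicate 1.

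In HaCaT-HRAS with scramble siRNA (0.900% of all genes) only HBEGF was called, at 9.27 and 9.36 with PBS against 8.38, 8.56 and 8.46 with afatinib, gefitinib and cetuximab. It fell by 0.75 ± 0.12 (adjusted p = 0.000366), a call lost without scramble plus PBS replicate 2 (-0.58, adjusted p = 0.083). NRG1 was 8.46 and 8.48 with PBS and 8.15, 8.34 and 8.25 with the inhibitors, all 3 below both controls, and the fitted difference was 0.00 (95% interval -0.29 to 0.30), or -0.231 within batch E. EREG was 6.96 and 6.42 against 5.58, 5.93 and 5.86, with a fitted difference of -0.29 (adjusted p = 0.701) and -0.632 within batch E. Of the controls 1 lay in batch J and 1 in batch E, and all inhibitor arrays lay in batch E.

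Against HaCaT-Mock, the response of HaCaT-HRAS with scramble siRNA was weaker for EREG by 1.66 ± 0.44 (adjusted p = 0.015), NRG1 by 1.04 ± 0.23 (adjusted p = 0.0037) and TGFA by 0.74 ± 0.22 (adjusted p = 0.0364), with 5.62% of all genes called. HBEGF differed by -0.09 (95% interval -0.48 to 0.30). That value rests on the single HaCaT-Mock control array, whose HBEGF level of 6.62 lay below the scramble siRNA arrays, 7.64 to 7.69. Against the mean of the other 3 lines only NRG1 was called, at 0.93 ± 0.17 (adjusted p = 0.000424; 1.48% of all genes), and TGFA also passed without the 3 arrays of low weight (0.51, adjusted p = 0.0376). None of the 4 calls made with all arrays held without scramble plus PBS replicate 1 of HaCaT-HRAS (adjusted p = 0.167, 0.0929, 0.219 and 0.135 in the order given) or without the batch term. The HaCaT-Mock arrays were all of batch J and the other lines' inhibitor arrays all of batch E, so line and batch cannot be told apart in the first of these comparisons beyond what the other groups of the model give.

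The carcinoma lines were set against HaCaT-Mock with PBS, not against the parental HaCaT line. On the single untreated HaCaT-Parent array EREG was 5.41, HBEGF 6.99 and TGFA 7.89. The HaCaT-Mock means with PBS were 7.28, 7.65 and 9.65. TGFA on the HaCaT-Parent array lay below every SCC1 and SCC25 array. That array was of batch M, which held no HaCaT-Mock array with PBS, and the difference was not tested. EREG was 4.83 and 4.11 in SCC1 and 4.43 and 3.66 in SCC25, below all 3 HaCaT-Mock arrays with PBS, and the differences were -2.89 ± 0.27 (adjusted p = 7.84e-14) and -3.31 ± 0.27 (adjusted p = 4.48e-16). NRG1 was 9.82 and 9.29 in SCC1, with 1 array inside the range of HaCaT-Mock with PBS and 1 just below it, and 7.97 and 7.47 in SCC25, both below it. The bottom of that range was a batch E array, and SCC1 had no array of batch E. Both SCC1 arrays lay below the batch J arrays of HaCaT-Mock with PBS. The NRG1 differences were -0.45 ± 0.14 (adjusted p = 0.00809) and -2.28 ± 0.14 (adjusted p = 7.14e-21). All 5 other NRG1 probe sets gave a value above 0 in SCC1, from 0.01 to 0.42, and the call was lost without HaCaT-Mock PBS replicate 1 or 2 or SCC1 replicate 2 (adjusted p = 0.0942, 0.0698 and 0.088).

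HBEGF was 7.48 and 7.55 in SCC1 and 6.66 and 6.58 in SCC25. It was lower than in HaCaT-Mock in SCC25, at -1.12 ± 0.12 (adjusted p = 6.72e-12), and differed by -0.22 in SCC1 (95% interval -0.46 to 0.02, adjusted p = 0.154). TGFA was 9.39 and 9.02 in SCC1 and 8.59 and 8.02 in SCC25, with differences of -0.43 ± 0.14 and -1.33 ± 0.14. The SCC1 value had an adjusted p of 0.0107, or 0.103 without SCC1 replicate 2, and the probe set 205015_s_at gave 0.27. EGF, the ligand that stayed level elsewhere, was 4.27 and 3.99 in SCC25 against 3.31 to 3.59 in HaCaT-Mock and was higher by 0.66 ± 0.12 (adjusted p = 2.34e-06). BTC was higher in SCC25 by 0.47 ± 0.17 (adjusted p = 0.023), a call lost without either SCC25 array or HaCaT-Mock PBS replicate 2 (adjusted p = 0.1, 0.0861 and 0.0514).

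In all, 3 ligands were called in SCC1 (37.4% of all genes) and all 6 in SCC25 (42.2%). Between SCC1 and SCC25, where 42.5% of all genes were called, SCC1 had more NRG1 by 1.84 ± 0.15 (adjusted p = 6.20e-16), TGFA by 0.90 ± 0.15 and HBEGF by 0.89 ± 0.13 and less EGF, at -0.49 ± 0.12. The EGF call was lost without SCC25 replicate 1 or SCC1 replicate 2 (adjusted p = 0.068 and 0.0556). EREG differed by 0.42 (95% interval -0.15 to 1.00, adjusted p = 0.262). The 4 keratinocyte markers were all lower in SCC1 than in HaCaT-Mock, with a median of -2.38, and 3 of 4 were higher in SCC25, and their part in the ligand values was not tested. Of the feedback inhibitors 3 were higher and 4 lower in SCC1 and 3 higher and 8 lower in SCC25, where DUSP4 and DUSP6 stood at -3.12 and -2.54. The metalloprotease ADAM19 was lower in both lines, at -4.50 in SCC1 and -2.40 in SCC25.

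**Figure D5:**
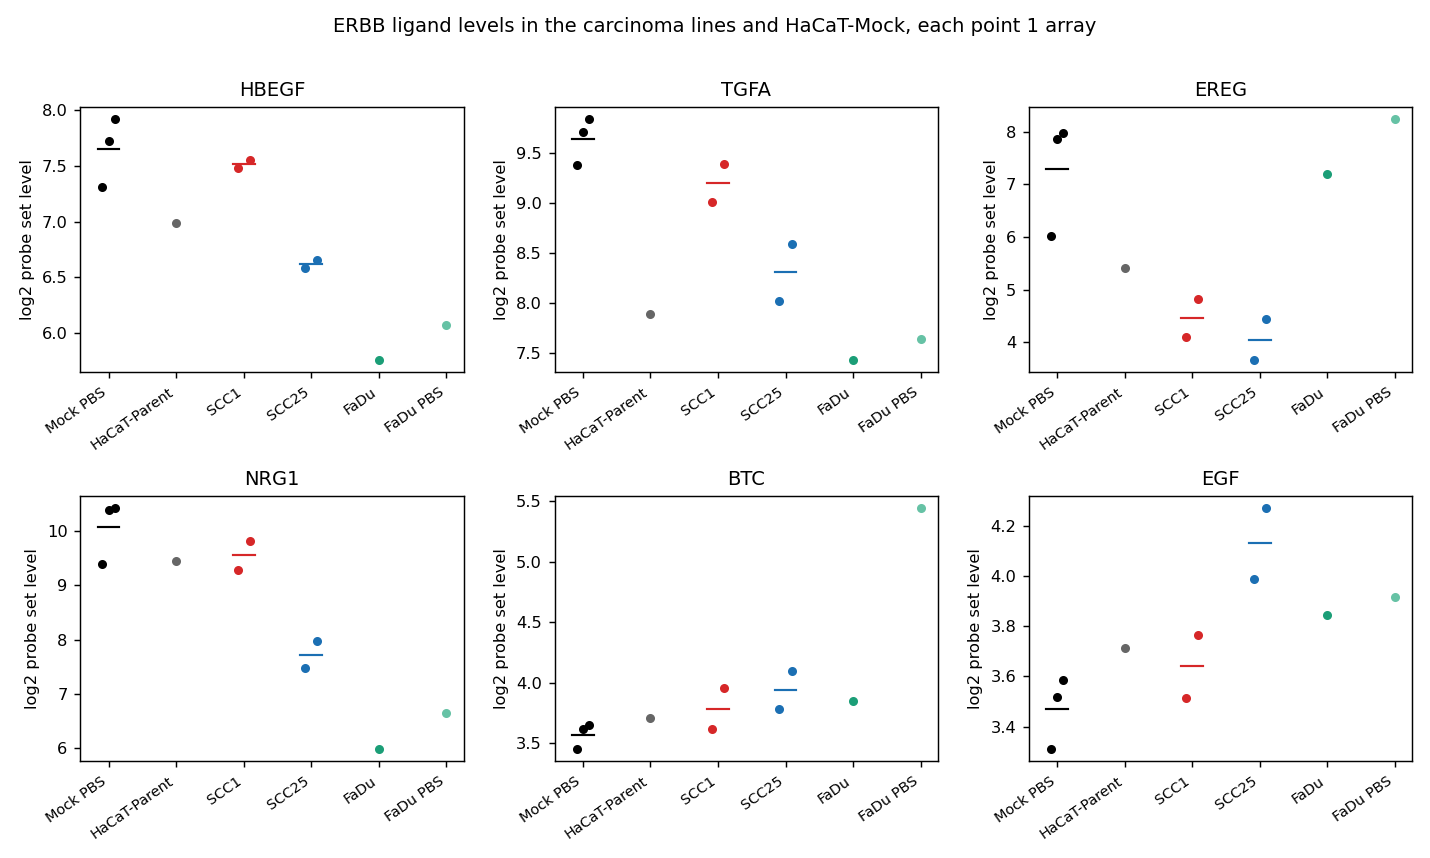
Log2 probe set level of each ligand (vertical axes) on each array of HaCaT-Mock with PBS, HaCaT-Parent, SCC1, SCC25 and FaDu, with short bars at the means of groups of more than 1 array. EREG lay at 3.66 to 4.83 in SCC1 and SCC25 and at 7.19 and 8.24 on the FaDu arrays.

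Ordered by group mean with PBS or untreated, HBEGF ran from HaCaT-HRAS down through HaCaT-PIK3CA, HaCaT-Mock, HaCaT-EGFR and SCC1 to SCC25, where HaCaT-HRAS stood clear of the next line, HaCaT-EGFR stood just above SCC1 without overlap, SCC1 stood clear of SCC25 and the other neighbours overlapped. TGFA ran from HaCaT-HRAS through HaCaT-PIK3CA, HaCaT-Mock, HaCaT-EGFR and SCC1 to SCC25, where HaCaT-PIK3CA overlapped HaCaT-Mock, HaCaT-EGFR overlapped SCC1 and the other neighbours did not overlap. For NRG1 the order was HaCaT-EGFR, HaCaT-PIK3CA, HaCaT-Mock, SCC1, HaCaT-HRAS and SCC25, where HaCaT-PIK3CA overlapped HaCaT-Mock, HaCaT-Mock overlapped SCC1 and the other neighbours did not overlap. For EREG the order was HaCaT-HRAS, HaCaT-EGFR, HaCaT-Mock, HaCaT-PIK3CA, SCC1 and SCC25. Neighbours among the HaCaT lines overlapped, although HaCaT-EGFR lay above all HaCaT-PIK3CA arrays, and SCC1 and SCC25 overlapped each other below them. The means behind these orders were not adjusted for batch, and the groups did not all hold the same batches. Within batch J, HaCaT-EGFR differed from HaCaT-Mock by -0.136 for EREG, and HaCaT-PIK3CA by -0.00218 for NRG1, both opposite to the order. For these ligands the other differences of the construct lines from HaCaT-Mock kept their direction within batch J. FaDu and HaCaT-Parent, with single arrays, were left out of the order. FaDu lay below SCC25 for HBEGF (5.76 and 6.08), TGFA (7.42 and 7.64) and NRG1 (5.98 and 6.66). The HaCaT-Parent array lay below SCC25 for TGFA (7.89) and between HaCaT-Mock and SCC25 for HBEGF (6.99) and EREG (5.41).

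The ligands varied together to different degrees over the 40 groups of line and treatment, described here as correlations of batch-adjusted group means that share arrays, batches and controls. HBEGF and TGFA had a Pearson r of 0.935, HBEGF and EREG 0.789 and TGFA and EREG 0.773. HBEGF and NRG1 had 0.0516, and HBEGF and BTC -0.713. These values span lines as well as treatments, and correlations within a line were not computed. With PBS, HaCaT-HRAS had the highest HBEGF and TGFA and the lowest NRG1 of the construct lines. HBEGF and NRG1 both fell under the inhibitors in HaCaT-Mock, HaCaT-EGFR and HaCaT-PIK3CA. The genes most like HBEGF were CD274, which encodes the immune checkpoint ligand PD-L1 (0.975), the protease inhibitor TFPI2 (0.974) and DNMBP (0.973). Those most like TGFA were the metalloprotease ADAM8 (0.98), the myosin MYO1E (0.965) and MICAL2 (0.964). EREG was most like the sulfotransferase HS3ST1 (0.948), SLC25A37 (0.917) and ADAMTS6 (0.914), and NRG1 most like MSANTD3 (0.898), TMEM45A (0.897) and ELP5 (0.872). For BTC these were ZNF268 (0.873), HOXC4 (0.866) and TANC1 (0.858). For EGF the highest were TAGAP (0.563), MUC8 (0.521) and CREM (0.508), low values for a gene whose levels hardly varied.

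The other probe sets of a gene are a check on its values. HBEGF 38037_at gave 1.79 for HaCaT-HRAS against HaCaT-Mock, -1.16 under the inhibitors over the 4 lines and -0.951 under siEGFR, close to 203821_at. HBEGF 222076_at and 244857_at, with means of 3.95 and 4.54, were dim and flat, as was EREG 1569583_at with a mean of 4.55. For NRG1, 206237_s_at, 208230_s_at, 208231_at and 208241_at fell under the inhibitors over the 4 lines by 0.695, 0.53, 0.356 and 0.696, and 208232_x_at gave 0.0441. NRG1 has many isoforms, and which of them each probe set detects was not tested.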

How the data were processed

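RNA of the 96 samples was hybridised to Affymetrix arrays. The authors deposited log2 probe set values. Their methods describe frozen RMA, a batch correction and outlier removal, without stating how far the deposited values had passed through them. Of 54675 probe sets, 41091 had 1 gene symbol in the platform annotation, 1801 had several and 11777 were not listed. Groups and batches came from the labels. Replicate numbers follow accession order, which matches the numbers in the labels where these give one. limma 3.58.1 in R 4.3.3 (data.table, version 1.17.8) fitted each group plus batch over the 89 construct arrays (47 residual degrees of freedom), and over 95 arrays for the carcinoma lines, with Benjamini-Hochberg adjustment over 19775 genes and a threshold of 0.05. The number of arrays limits the precision. The pipeline was tested on simulated data. Named genes were the 6 ligands, EGFR, DUSP6 and EGR1 as checks, the 2 members of each pathway, marker or housekeeping list with the lowest adjusted p, and the 3 genes most like each ligand. The ligands and lists were chosen with earlier results of these data known. Comparisons of siEGFR with the inhibitors, and of the inhibitors with scramble siRNA in single lines, were added after seeing the data. Alternatives covered batch handling, scaling, array weights, probe sets, filters, thresholds and each array left out. FaDu and HaCaT-Parent had too few arrays for a test.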

Additional observations from a re-analysis of the deposited data

Results flagged for a closer look

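The response of HaCaT-HRAS to the 3 inhibitors differed from that of HaCaT-Mock by a test of the difference itself, by 1.08 for HBEGF (SE 0.123, adjusted p = 3.64e-09), by 1.11 for EREG (SE 0.277, adjusted p = 0.00462) and by 1.17 for NRG1 (SE 0.145, adjusted p = 3.91e-08). In HaCaT-HRAS, HBEGF lay below every PBS array on 9 of 9 inhibitor arrays.

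With scramble siRNA the same difference was 0.737 for TGFA (adjusted p = 0.0364), 1.66 for EREG (adjusted p = 0.015) and 1.04 for NRG1 (adjusted p = 0.0037). Against the mean of the other 3 lines it was 0.927 for NRG1 (adjusted p = 0.000424). These rest on 1 array per inhibitor and line, and all 4 calls were lost without scramble plus PBS replicate 1 of HaCaT-HRAS, where the values were 0.626, 1.32, 0.808 and 0.67. No group had more than 3 arrays, so single arrays were not tested as outliers.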

How the results depend on the processing

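Each value was recomputed under 26 other settings and with each of 96 arrays left out in turn. Of 2600 values under settings other than probe sets, 2494 kept their direction and call, 68 lost and 34 gained a call and 4 reversed. Another probe set kept 2384 of 2520 values, and leaving out an array kept 2595 of 2628 and reversed 0. The cause of the changes below was not tested. Leaving out a group's only array (scramble siRNA with an inhibitor, HaCaT-Mock scramble siRNA with PBS) gives no value, and batch J alone could not give comparisons without batch J arrays. Signal near the array's lower limit restricts what BTC and EGF can show.

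Without a batch term, the number of ligand calls went from 42 to 27 for single inhibitors, from 13 to 6 for inhibitors with scramble siRNA by line, and from 4 to 0 for the HaCaT-HRAS difference with scramble siRNA. For that difference, calls were also 0 of 1 with only the groups compared in the fit, 2 at an adjusted p under 0.01, and 2 with NRG1 208230_s_at, 208231_at, 208232_x_at or 208241_at. The siEGFR difference went from 0 to 1 without the 3 arrays of low weight and the inhibitor difference from 3 to 5 with array weights. Scramble siRNA against PBS went from 2 to 1 with the study's probe set rule, EREG 1569583_at, NRG1 206237_s_at, 208230_s_at, 208231_at or 208232_x_at, or a log2 difference of at least 0.5, which also took the inhibitors over the 4 lines from 5 to 3. Calls of siEGFR by line went from 7 to 3 with HBEGF 222076_at or 244857_at and to 4 with TGFA 211258_s_at, and over the 4 lines from 2 to 1 with either HBEGF probe set. Constructs with PBS went from 4 to 2 with NRG1 208232_x_at.

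With each array left out in turn, calls ran from 3 to 4 for constructs with PBS, 3 to 3 with scramble siRNA, 14 to 16 for inhibitors by line, 39 to 43 for single inhibitors, 5 to 5 over the 4 lines, 3 to 3 for the inhibitor difference, 7 to 8 for siEGFR by line, 2 to 2 over the 4 lines, 0 to 0 for the siEGFR difference, 4 to 5 for inhibitors with scramble siRNA, 11 to 13 by line, 0 to 5 for the HaCaT-HRAS difference there, 2 to 3 for scramble siRNA against PBS, 6 to 6 for siEGFR against the inhibitors, 7 to 10 for SCC1 and SCC25 against HaCaT-Mock and 3 to 4 between SCC1 and SCC25.

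Each reversal came with another probe set of the gene. HBEGF 222076_at gave -0.13 for HaCaT-HRAS against HaCaT-Mock with scramble siRNA, 0.148, 0.0718, 0.0826, 0.0252 and 0.0819 for the inhibitors in HaCaT-Mock, HaCaT-EGFR, HaCaT-HRAS, HaCaT-PIK3CA and over the 4 lines, -0.0654 for the HaCaT-HRAS difference, 0.101, 0.149, 0.0862, 0.128 and 0.116 for siEGFR in the same order, 0.0155 and 0.00434 for inhibitors with scramble siRNA in HaCaT-Mock and HaCaT-EGFR, 0.256 for SCC25 and -0.219 for SCC1 against SCC25. HBEGF 244857_at gave 0.0321, 0.178, 0.0193, 0.0495 and 0.0698 for the inhibitors, -0.0128 for the HaCaT-HRAS difference, 0.0352, 0.122 and 0.0205 for siEGFR in HaCaT-Mock, HaCaT-PIK3CA and over the 4 lines, -0.0493 for siEGFR against the inhibitors, 0.00933 for SCC25 and -0.0284 for SCC1 against SCC25. EREG 1569583_at gave 0.0324 for the inhibitors in HaCaT-Mock and -0.0058 for siEGFR against the inhibitors, and TGFA 205015_s_at gave 0.274 for SCC1.

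For NRG1, 206237_s_at, also the choice of the study's rule, gave -0.232 and -0.496 for HaCaT-EGFR with PBS and scramble siRNA, 0.0479 for scramble siRNA against PBS and 0.337 for SCC1. NRG1 208230_s_at gave -0.149, 0.00714 and 0.283 for HaCaT-EGFR with PBS, scramble siRNA against PBS and SCC1. NRG1 208231_at gave 0.223 for inhibitors with scramble siRNA in HaCaT-PIK3CA, -0.0102 for HaCaT-HRAS against the other 3 lines and 0.417 for SCC1, and 208241_at gave 0.273, -0.025 and 0.0137 for these and 0.133 in HaCaT-EGFR. NRG1 208232_x_at gave 0.0859 and 0.000769 for HaCaT-HRAS with PBS and scramble siRNA, 0.177 and 0.0441 for the inhibitors in HaCaT-Mock and over the 4 lines, -0.138 for the HaCaT-HRAS difference, 0.0157 for scramble siRNA against PBS, -0.0657 for siEGFR against the inhibitors, 0.0355 and -0.137 with scramble siRNA in HaCaT-EGFR and for HaCaT-HRAS against the other 3 lines, 0.161 for SCC1 and 0.00169 for SCC25.

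With a replicate block, the NRG1 difference of HaCaT-EGFR with PBS was 0.368 (adjusted p = 0.362) and no longer passed, while HBEGF passed for scramble siRNA against PBS (-0.155, adjusted p = 0.0278) and for SCC1 (-0.331, adjusted p = 0.0323). Deviations of same-numbered arrays in batch J correlated between -0.209 and 0.222 over 190 pairs of groups, with 9 above 0.1. These pairs were taken across lines as well as within them, so pairing within a line was not tested on its own.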

Other observations

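FaDu, a hypopharyngeal carcinoma line, and the parental HaCaT line were measured on too few arrays for a comparison. On the untreated and the PBS array of FaDu, which are of different batches, EREG was 7.19 and 8.24, HBEGF 5.76 and 6.08, TGFA 7.42 and 7.64, NRG1 5.98 and 6.66, BTC 3.85 and 5.45 and EGF 3.85 and 3.92. On the HaCaT-Parent array HBEGF was 6.99, TGFA 7.89, EREG 5.41, NRG1 9.45, BTC 3.71 and EGF 3.71.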
